A study of Mus musculus with 94 samples.

Results

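The genes described here are 9 enzymes and transporters of folate and one-carbon metabolism, Fpgs, Slc19a1, Tyms, Shmt1, Shmt2, Mthfd1, Mthfd1l, Mthfd2 and Gart, followed across single bone marrow basophils of 2 sort gates. They were taken as a named list from the 46078 mouse gene identifiers of the deposited count table, all 9 were matched by identifier, and the members were selected on earlier results of the same counts: Fpgs had been seen to differ strongly between the gates in its read counts. The cells were live, negative for lineage markers and for Sca1, and positive for the IgE receptor FcεRI, and came from female C57BL/6 mice that carried no other treatment or allele in the labels. Of the 94 cells, 47 were CD34-positive and 47 were CD34-negative, CD34 being found on the surface of early blood progenitors, and 46 of each gate passed the cell filter. The design names 3 mice but no label ties a cell to a mouse, so each gate was treated as 1 sample, no test was run, and none of the intervals covers differences between mice.

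Folate carries single carbon units between serine, glycine, purines, thymidylate and methionine. Cells import folates through carriers such as the product of Slc19a1, and Fpgs adds a chain of glutamates that holds folates in the cell. Serine hydroxymethyltransferases load the carbon unit, in the cytosol (Shmt1) and in mitochondria (Shmt2), and the Mthfd enzymes pass it between oxidation states. Gart uses it to build the purine ring and Tyms to make thymidylate for DNA, so the pathway is best known for feeding DNA synthesis in dividing blood progenitors.

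The promoter windows of Fpgs and Tyms are shown because these genes stood apart in the results. By the log2 fold of summed CPM plus 1, Fpgs was highest and Tyms lowest of the 9, and in CD34-positive cells Tyms had the highest and Fpgs the lowest correlation with cell cycle genes. The order of the folds depends on the measure: with a pseudocount of 10 CPM, Gart (2.11) and Shmt1 (2.06) lay above Fpgs (2.03). Each window runs from 250 bases before to 50 after the RefSeq start on GRCm38.p6, 5′ to 3′ on the gene's strand, which is the minus strand for both. Capitals mark exact matches, on either strand, to the letters of 3 motifs: GGGCGG for a GC box, CCAAT for the box of that name, and CACGTG for an E-box.
Fpgs, chr2:32694126-32694425: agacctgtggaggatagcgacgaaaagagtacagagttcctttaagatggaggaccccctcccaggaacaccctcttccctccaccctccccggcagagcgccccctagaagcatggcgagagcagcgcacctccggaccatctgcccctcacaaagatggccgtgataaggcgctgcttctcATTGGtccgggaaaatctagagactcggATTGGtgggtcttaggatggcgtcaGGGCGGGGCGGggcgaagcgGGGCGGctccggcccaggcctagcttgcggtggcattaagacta
Tyms, chr5:30073576-30073875: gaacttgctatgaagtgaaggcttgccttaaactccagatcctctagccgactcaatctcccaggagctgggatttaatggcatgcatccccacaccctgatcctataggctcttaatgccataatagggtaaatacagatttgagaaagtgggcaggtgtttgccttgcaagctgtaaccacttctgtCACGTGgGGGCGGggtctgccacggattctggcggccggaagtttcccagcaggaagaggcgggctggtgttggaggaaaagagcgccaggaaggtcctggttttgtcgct
The Fpgs window held 3 GC box matches, of which 2 overlap by their end bases, and 2 CCAAT box matches. The Tyms window held 1 E-box match and 1 GC box match. Of 32851 mouse promoter windows of the same length, 35.7% held a GC box, 37.4% a CCAAT box and 7.15% an E-box. None of the 10 windows of the 9 genes, with 2 for Slc19a1, matched the E2F-type letters TTTCCCGC or TTTGGCGC, which 1.56% of all windows held, or TGATGNAA, a form of the element bound by ATF4 with C/EBP factors, which 3.97% held. These matches describe the letters in the window only. In the GENCODE M21 annotation Fpgs lies at chr2:32682609-32704145 and Tyms at chr5:30058202-30073617, both on the minus strand.

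Gene reads per kept cell ranged from 262944 to 938322 in the CD34-negative gate and from 374011 to 1154738 in the CD34-positive gate. After drawing each cell to 200000 gene reads, the median number of genes found was 4520.5 per CD34-negative and 6519 per CD34-positive cell, so that finding a gene at all was more frequent in the CD34-positive gate. Cd34, the gate's own marker, had 1799 reads in its gate as against 7 in CD34-negative cells. The 10 progenitor markers summed to 1000.6 and 7983 CPM, with 8 of the 9 measured at a log2 fold of 1 or more and a median of 4.13, where 21.7% of all genes tested were at 1 or more and 10.1% at -1 or less, as for Mpo (125.2 and 3119 CPM) and Ctsg (350.8 and 3859 CPM). The 11 basophil markers summed to 49670 CPM (counts per 1000000 gene reads) in the CD34-negative and 99614 CPM in the CD34-positive gate, and all 11 had reads. That sum was carried by Prss34 and Mcpt8: the median log2 fold of the 11 was -0.47, with 3 at 1 or more and 4 at -1 or less (Cd200r3, Il4, Csf2rb and Itga2). Marker sums of other lineages were low or set by single genes. Per cell, mast cell markers summed to 0 to 1.43 CPM in CD34-negative and 0 to 285 CPM in CD34-positive cells, neutrophil markers to 0 to 235 and 0 to 472 CPM, erythroid markers to 0 to 31.2 and 0 to 359 CPM, B cell markers to 0 to 506 and 0 to 590 CPM, and eosinophil markers to 0 to 1099 and 0 to 1496 CPM. Monocyte and dendritic cell markers, mainly Ccr2, summed to 0 to 1943 and 0 to 809 CPM, and megakaryocyte markers, nearly all Itga2b, to 7.61 to 3916 and 0 to 2672 CPM. The defining markers Mcpt1, Mcpt2, Mrgprb2, Ly6g, Ltf, Camp, Hba-a1, Hba-a2, Car1, Ear1, Ear6, Cd209a, Pf4 and Ppbp had 0 reads in all kept cells. The part of these markers in the values below was not tested.

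Each of the 9 had a higher summed level in CD34-positive cells. Together the 9 genes came to 161.1 CPM in the CD34-negative and 521.6 CPM in the CD34-positive gate. The lowest value of each gene was 0 CPM in both gates, and its median over CD34-negative cells was 0 CPM. In single cells the sum of all 9 ran from 0 to 1162 CPM with a median of 2.36 in the CD34-negative gate, and from 20.3 to 2014 CPM with a median of 417 in the CD34-positive gate. The gates overlapped, but 0 CD34-positive cells lacked a read of all 9 genes.

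**Figure D1:**
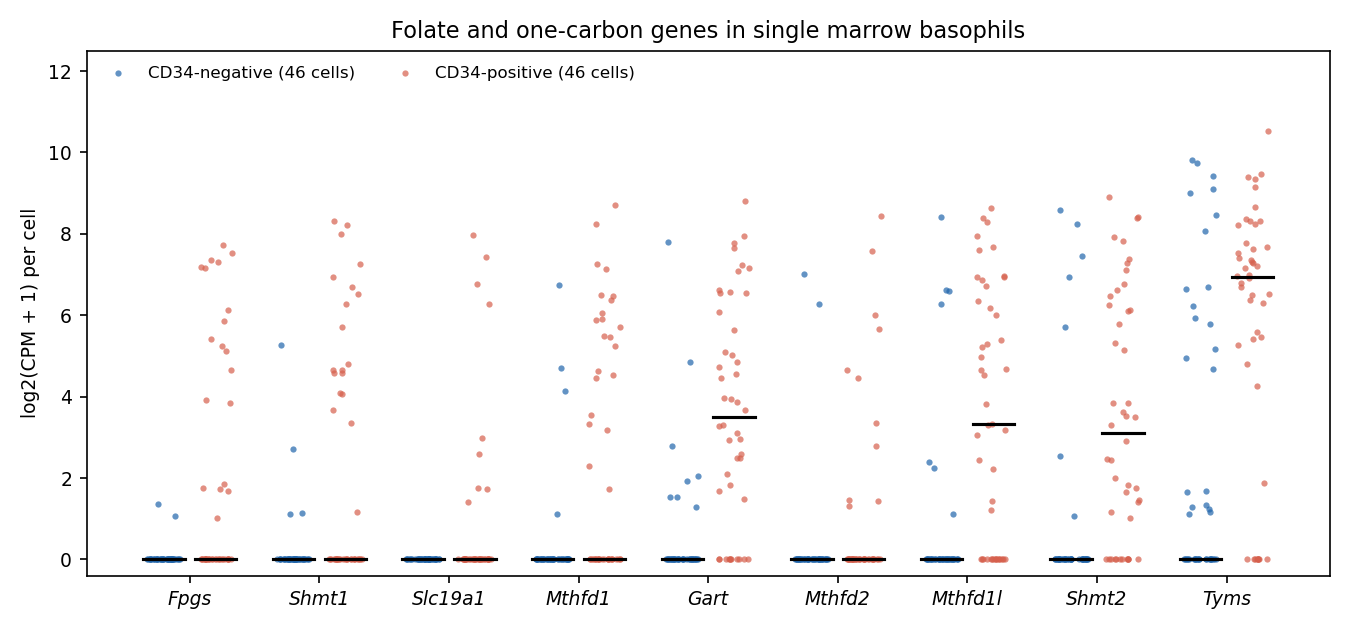
Each point is 1 of 46 kept cells per gate, the vertical axis is log2(CPM + 1) and black bars are medians over cells. The median CD34-negative cell had no read of each of the 9 genes, and Tyms was the gene most often present in both gates.

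A log2 fold here is the ratio of summed CPM plus 1 CPM, CD34-positive over CD34-negative, with a 95% interval for counting error only. The median of the 9 folds was 3.08, and over the 12460 genes that had reads in 10 or more of the kept cells it was 0.19. With Slc19a1 at 7.13, its log2 ratio to a floor of 3 reads without a pseudocount, the median of the 9 was also 3.08. A log2 fold of 1 or more was reached by 8 of the 9 genes, as against 21.7% of the 12460, and a log2 fold of 3 or more by 5, as against 2.54%. The list was put forward with this contrast known, so the counts describe it and support nothing. The fold filter was met by 8 of the 9 genes. It pooled both gates, and of the 8 only Tyms had reads in 10 or more CD34-negative cells. The others passed through their CD34-positive cells, where they were higher. Slc19a1 had reads in only 9 cells and is given outside the filter. The 8 had a median of 2.51, with 7 at 1 or more. Scaling moved all folds together: the median of all genes was 0.02 with TMM factors, 0.00 with scran size factors and 1.04 with ERCC spike-in scaling, under which 87.6% of genes were above 0 in place of 58.9%.

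Folate import and retention are described first. Slc19a1, the reduced folate carrier, had 0 reads in 46 CD34-negative cells. The CD34-positive gate held 378 Slc19a1 reads in 9 cells, from 0 to a highest value of 248 CPM and a median of 0. Against a floor of 3 reads for the whole CD34-negative gate this was at least 140-fold higher, and at least 72.4-fold without CD34-positive cell 17. These floors leave out the counting error of both sums, with which the exact Poisson limits lower the first to 102.9-fold. Its reads were uneven, since 49.7% came from CD34-positive cell 17, and the log2 fold of 3.76 (3.48 to 3.90) was 2.91 without that cell. Slc19a1 was therefore a gene of a few CD34-positive cells.

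Fpgs, folylpolyglutamate synthase, had 1 read in each of 2 CD34-negative cells and none in the other 44, so its highest CD34-negative value was 1.56 CPM. In the CD34-positive gate 19 of 46 cells had Fpgs reads, with a median of 37.01 CPM where found, a median of 0 over all cells and a highest value of 211 CPM. Most CD34-positive cells thus had no Fpgs read, and the cells that had reads fell into 5 with 1 or 2 reads, at 1.04 to 2.64 CPM and so near the CD34-negative values of 1.09 and 1.56 CPM, and 14 with at least 9 reads, at 13.4 CPM or more. The summed reads were 2 and 931, which is 518-fold in CPM (134 to 4565 by counting error) and a log2 fold of 4.92 (4.63 to 5.08). CD34-positive cell 19 held 15.6% of the reads, and leaving out each cell in turn gave 4.72 to 4.97. Fpgs shares 61 exon bases with Eng on the opposite strand, and Eng stood at 5.38 and 27.1 CPM. The strand setting of the counting is not given in the sources used here, so reads of such overlaps are uncertain.

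The serine hydroxymethyltransferases differed in how far the gates stood apart. Cytosolic Shmt1 had reads in 4 CD34-negative cells, with a highest value of 37.3 CPM, and in 19 CD34-positive cells, with a highest value of 319 CPM. Both medians over all cells were 0. The sums were 1.05 CPM (0.729 to 1.46) and 35.995 CPM (33.9 to 38.2), a log2 fold of 4.18 (3.83 to 4.50). CD34-negative cell 8 held 80.0% of the CD34-negative reads, and the fold was 4.93 without it. Shmt1 shares 184 exon bases with Smcr8 on the opposite strand, which stood at 80.0 and 100.4 CPM.

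Mitochondrial Shmt2 was found in 7 CD34-negative cells, with a highest value of 386 CPM, and in 34 CD34-positive cells, with a median of 7.66 and a highest value of 482 CPM. The range of the gates was similar at the top, and more CD34-positive cells had the gene. Cells with Shmt2 reads differed in the other direction. Their median was 24.1 CPM for the 34 CD34-positive cells, as against 121.2 CPM for the 7 CD34-negative ones. The Shmt2 sums were 24.3 CPM (22.6 to 26.0) and 63.3 CPM (60.5 to 66.2), a log2 fold of 1.35 (1.19 to 1.51). Without CD34-negative cell 23, which held 41.5% of the CD34-negative reads, the fold was 2.04.

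Of the Mthfd genes, Mthfd1 encodes the cytosolic enzyme with 3 activities, and Mthfd1l and Mthfd2 encode mitochondrial enzymes. Mthfd1 had reads in 4 CD34-negative cells, with a highest value of 106 CPM, and in 22 CD34-positive cells, with a highest value of 418 CPM and a median of 0. Its sums of 3.02 CPM (2.46 to 3.67) and 36.03 CPM (33.9 to 38.2) gave a log2 fold of 3.20 (2.90 to 3.50). CD34-negative cell 31 held 75.3% of the CD34-negative Mthfd1 reads, and the fold was 4.39 without it.

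Mthfd1l had reads in 7 CD34-negative cells, with a highest value of 339 CPM, and in 30 CD34-positive cells, with a median of 8.99 and a highest value of 395 CPM. Its sums were 16.2 CPM (14.9 to 17.6) and 63.6 CPM (60.8 to 66.6), a log2 fold of 1.91 (1.73 to 2.09), or 2.96 without CD34-negative cell 36. Mthfd2 was the sparsest of the mitochondrial genes, with reads in 2 CD34-negative cells, numbers 25 and 36, and in 11 CD34-positive cells, where the highest value was 348 CPM. Its log2 fold of 1.94 (1.64 to 2.24) rested on single cells. CD34-positive cell 28 held 66.3% of the CD34-positive reads, and the fold was 0.55 without it. CD34-negative cells 25 and 36 held all CD34-negative reads, and the fold was 2.77 and 2.59 when each was left out alone. Without both, 0 CD34-negative Mthfd2 reads were left by construction, and the ratio to the floor of 3 reads was 215. That ratio describes the remaining cells and not the gate, and cell 28 held 66.3% of the CD34-positive reads in it. The log2 fold of 4.40 without CD34-negative cells 25 and 36 depends on the pseudocount and is no bound.

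The consumers of folate carbon units are Gart and Tyms. Gart, an enzyme of purine ring synthesis, had reads in 8 CD34-negative cells, with a highest value of 221 CPM, and in 35 CD34-positive cells, with a median of 10.4 and a highest value of 444 CPM. It was thus present in most CD34-positive and few CD34-negative cells. The sums were 6.22 CPM (5.40 to 7.12) and 59.9 CPM (57.2 to 62.7), a log2 fold of 3.08 (2.84 to 3.32). CD34-negative cell 27 held 83.2% of the CD34-negative reads, and the fold was 4.88 without it. Gart shares 1014 exon bases with the antisense gene Gm15964, which stood at 0.0598 and 7.33 CPM.

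Tyms, thymidylate synthase, was the one of the 9 most often found among CD34-negative cells, in 22 of 46, from 0 to 904 CPM with a median of 0 over all cells and of 56.9 CPM where found. CD34-positive cells had it in 37 of 46 cases, from 0 to 1487 CPM with a median of 122. The upper ranges of the gates overlapped widely. The sums were 105.8 CPM (102.3 to 109.3) and 199.0 CPM (193.9 to 204.1), a log2 fold of 0.91 (0.82 to 0.99), the smallest of the 9. This value was near a log2 fold of 1: it was above 1, at 1.01 to 1.19, when CD34-negative cell 11, 32, 36, 45 or 47 was left out, and 0.51 in cells numbered 7 to 42.

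**Figure D2:**
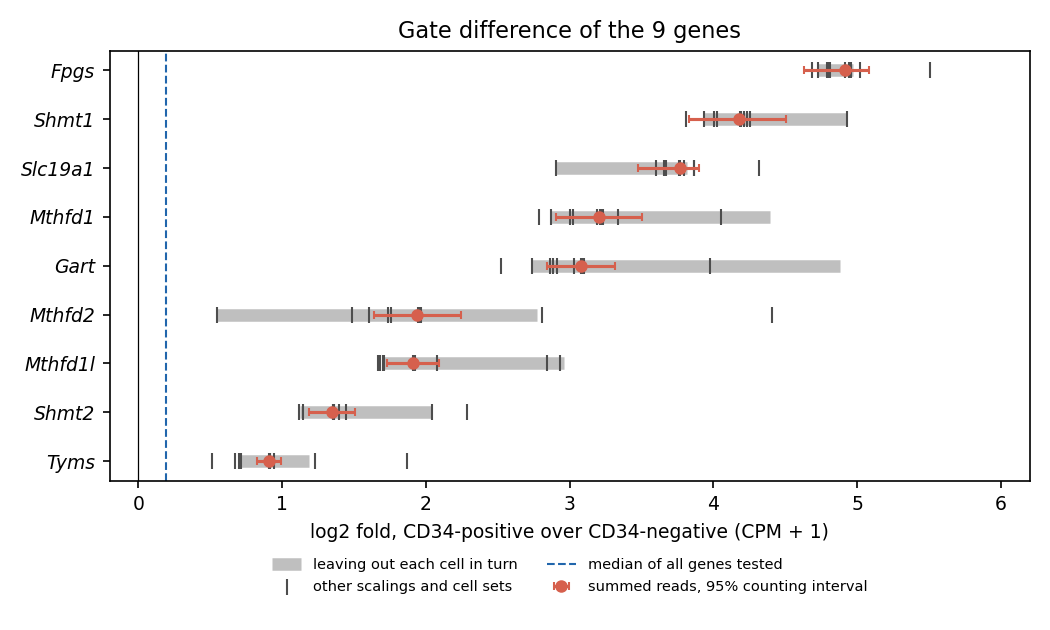
Orange points are log2 folds of summed CPM plus 1 with 95% counting intervals, grey bars the range when each cell is left out in turn, black ticks other scalings and cell sets, and the dashed line the median of all genes tested. Fpgs is highest at 4.92 and Tyms lowest at 0.91, and Mthfd2 has the widest leave-out range, 0.55 to 2.77.

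Levels were compared between genes only per kb of exon, as CPM per kb of the union of annotated exons. In the CD34-positive gate the order was Tyms (32.7 CPM per kb), Shmt2 (20.4), Mthfd1l (14.3), Gart (11.6), Shmt1 (9.27), Fpgs (8.15), Mthfd1 (8.11), Mthfd2 (5.79) and Slc19a1 (2.71). The counting intervals of Fpgs (7.64 to 8.69) and Mthfd1 (7.63 to 8.61) overlapped, so their order was not resolved. In the CD34-negative gate Tyms (17.4), Shmt2 (7.81) and Mthfd1l (3.65) again led, Mthfd2 (1.29) and Gart (1.21) could not be ordered, and Fpgs (0.0157) and Slc19a1 (0) were last. The cell-to-cell spread was far wider than these intervals, so the order describes the summed libraries.

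Detection was then compared at a fixed depth of 200000 gene reads per cell. Gart was found in 31 of 46 CD34-positive cells, or 67.4% (52.0% to 80.5%, exact Clopper-Pearson 95% interval), and in 5 of 46 CD34-negative cells, or 10.9% (3.63% to 23.6%). Shmt2 and Mthfd1l were each found in 28 CD34-positive and 5 CD34-negative cells, and Tyms in 37 and 18. Mthfd1 was found in 22 and 3 cells, Shmt1 in 19 and 1, and Fpgs in 15 and 1. Slc19a1 was found in 8 CD34-positive cells and in 0 of 46 CD34-negative cells, for which the exact interval reaches 7.71% and the limit of 3 counts 6.52%. Mthfd2, at 7 and 2 cells, had overlapping intervals of 6.34% to 28.9% and 0.531% to 14.8%. A difference of at least 10 cells was seen for 7 of the 9 genes, as against 32.5% of all genes tested, and the median difference was 19 cells for the 9 and 6 for all genes. When 10 reads were needed in a cell, 5 of the 9 genes had such a difference, as against 12.4% of all genes. Fpgs and Shmt1 then differed by 8 cells each, and Gart, Shmt2, Mthfd1 and Mthfd1l by 11 each.

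The number of the 9 genes found per cell ranged from 1 to 9 in the CD34-positive gate, with a mean of 4.24 ± 1.97 (SD, n = 46 cells) and a median of 4. In the CD34-negative gate it ranged from 0 to 5, with a mean of 0.870 ± 1.19 (SD, n = 46 cells) and a median of 0.5. At least 5 genes were found in 22 CD34-positive cells and in 1 CD34-negative cell, number 25. Of the CD34-negative cells, 23 had 0 of the 9. The full set of 9 was found in CD34-positive cells 44 and 47. The medians differed by 3.5 genes, beside the higher number of all genes found in CD34-positive cells given above.

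The relation to the cell cycle was described next. The measure was the number of 96 cell cycle genes (42 of S phase, with Tyms left out, and 54 of G2/M) found per cell at 200000 gene reads. It ran from 14 to 86 with a median of 45.5 in CD34-positive cells and from 6 to 85 with a median of 15 in CD34-negative cells. Correlations below are Spearman rho across the 46 CD34-positive cells and are descriptions without a p. These cells come from unassigned mice and may share a library preparation. The number of the 9 genes found had a rho of 0.44 with the cell cycle genes found. It also had a rho of 0.51 with all genes found, which itself had a rho of 0.48 with the cell cycle genes. With genes found per cell held constant by ranks, the first value was 0.26, and with Tyms left out of the 9 it was 0.36. In CD34-negative cells the rho was 0.34, and 0.10 with genes found held constant.

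**Figure D3:**
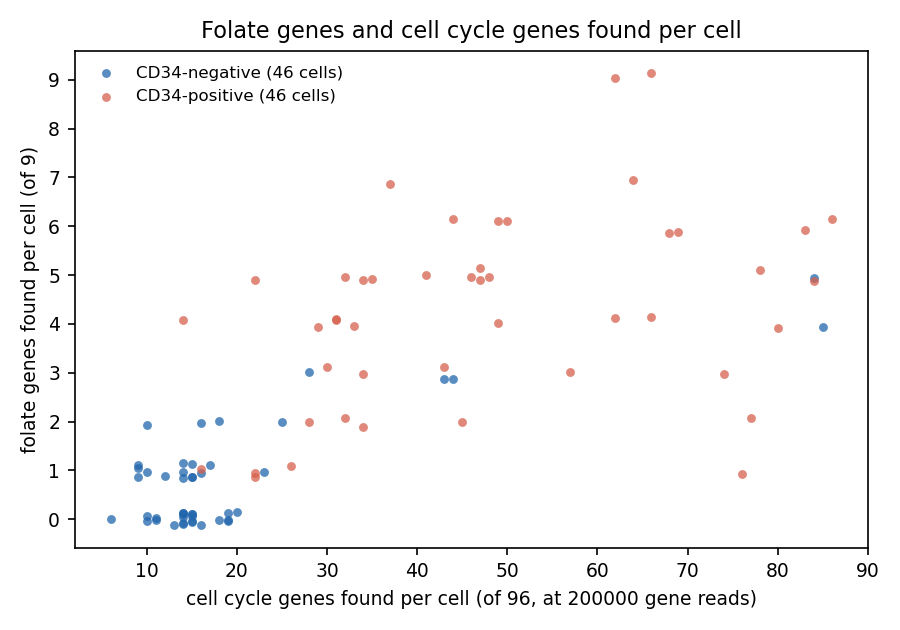
Each point is 1 cell, with cell cycle genes found (of 96) on the horizontal axis and folate genes found (of 9, spread slightly for visibility) on the vertical axis. CD34-negative cells 25 and 36, with 84 and 85 cell cycle genes, lie among the CD34-positive cells with 5 and 4 folate genes.

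Tyms followed the cell cycle measure most closely, with a rho of 0.65. It is itself a gene of the S phase list, left out of the measure, so nothing is read from a high value. The 12341 genes outside the cell cycle lists stand below for all genes. It was 0.67 against S phase genes alone and 0.47 against G2/M genes alone, and 0.65 with genes found held constant. Tyms was the 1 gene of the 9 at 0.6 or more, where 0.851% of genes outside the lists stood. In CD34-negative cells Tyms had a rho of 0.49 with S phase genes, 0.30 with all 96 and 0.10 with genes found held constant. There Mthfd1l (0.46) and Mthfd2 (0.36) were higher with all 96, on 5 and 2 cells with a read at 200000 gene reads.

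Mthfd1, Mthfd1l and Mthfd2 stood at 0.36, 0.36 and 0.35, and at 0.27, 0.28 and 0.29 with genes found held constant. A rho of 0.3 or more was thus reached by 4 of the 9 genes, as against 10.1% of the same genes, whose median was 0.05. With genes found held constant, 1 of the 9, Tyms, reached 0.3, as against 6.25% of the same genes. Mthfd1l and Mthfd2 had higher values against S phase genes (0.49 and 0.47) than against G2/M genes (0.15 and 0.24), whereas Mthfd1 had 0.35 and 0.37. The difference between S phase and G2/M was not tested. Mthfd2 rested on 7 cells with a read at 200000 gene reads.

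Shmt2 at 0.24, Shmt1 at 0.17 and Slc19a1 at 0.09 lay within the 5th to 95th percentile of all genes, -0.25 to 0.38. Gart had a rho of -0.02, which was 0.17 against S phase genes and 0.11 in cells numbered 7 to 42. Fpgs had a rho of -0.15, above 14.2% of all genes, and -0.33 both with genes found held constant and in cells numbered 7 to 42. In sparse counts no relation is read from values of this size in either direction, those of Mthfd1, Mthfd1l and Mthfd2 included. Fpgs, found in 15 cells, and Gart, found in 31, had no positive correlation with the 96 genes over all CD34-positive cells.

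**Figure D4:**
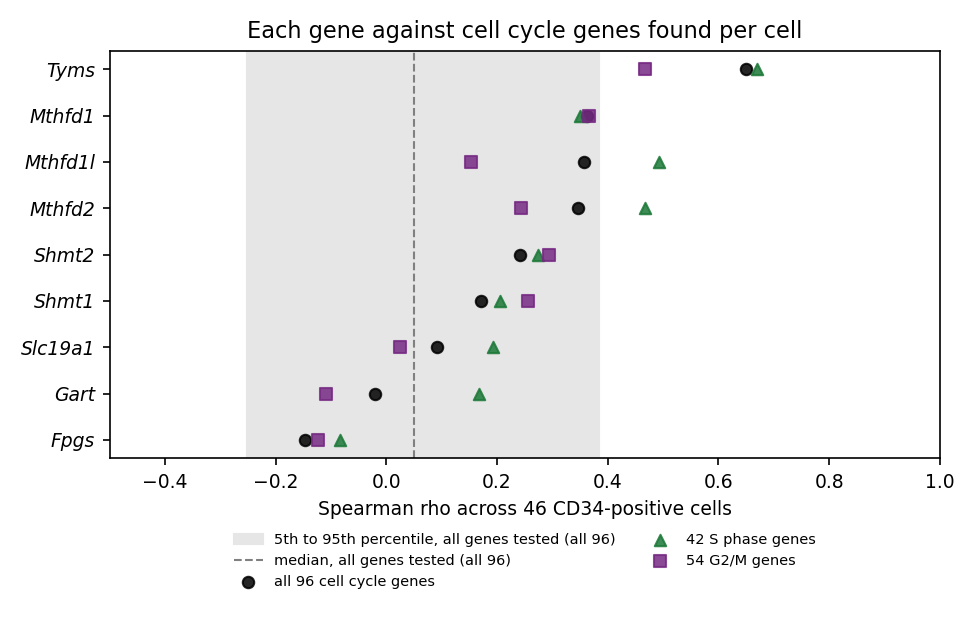
Spearman rho of each gene's reads with cell cycle genes found across 46 CD34-positive cells, for all 96 (circles), S phase (triangles) and G2/M genes (squares). The grey band spans the 5th to 95th percentile of all genes tested, and with all 96 genes only Tyms of the 9 lies above it.

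**Figure D5:**
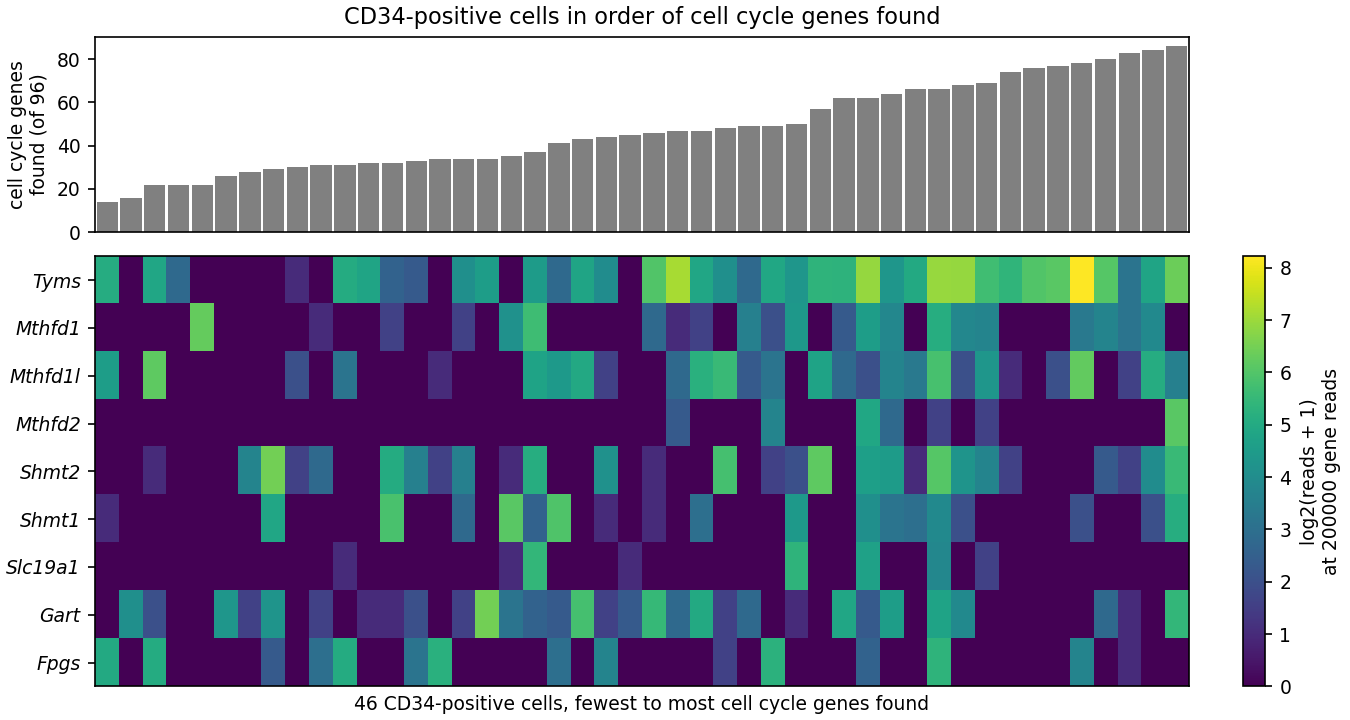
Columns are the 46 CD34-positive cells in order of cell cycle genes found (grey bars, of 96), and colours are log2(reads + 1) at 200000 gene reads. Tyms reads concentrate toward the right, while Fpgs and Gart reads are spread along the whole order.

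The 9 genes were then set against each other. Over 36 pairs in CD34-positive cells the median rho was 0.15, with a range of -0.18 to 0.49, 32 pairs were above 0 and 8 reached 0.3. With genes found held constant the median was 0.12, and pairs of other genes were not computed. The highest pairs were Tyms with Mthfd1l (0.49, 27 cells with both), Slc19a1 with Mthfd1 (0.44, 6 cells), Tyms with Mthfd2 (0.43, 7 cells) and Shmt1 with Shmt2 (0.40, 15 cells). The lowest were Fpgs with Gart (-0.18) and Fpgs with Mthfd1 (-0.11). Among 8828 other genes, those most like Fpgs across the 46 cells were Anapc16 (rho 0.57), Akip1 (0.53), Fam53a (0.53), Dennd1a (0.52) and Ergic1 (0.52), and their own gate folds ran from -0.28 (Anapc16) to 0.73 (Akip1). Those with the highest mean rho over the 9 genes were Mcm2 (0.34), a subunit of the replicative helicase, Atic (0.33), the last enzyme of purine ring synthesis, Ranbp1 (0.33), the arginine carrier gene Slc7a1 (0.33) and Wdhd1 (0.33). Both lists hold the highest of 8828 values, with genes found per cell not held constant. Fpgs itself had a rho of 0.28 with genes found. No relation is read from either list.

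Genes around the pathway differed less. Of 46 other genes of folate, nucleotide and amino acid metabolism, 33 had reads in at least 10 kept cells, with a median log2 fold of 0.89. Of these 33, 15 had a log2 fold of 1 or more, 0 had -1 or less and 18 lay between. Of all genes tested, 21.7% had 1 or more and 10.1% had -1 or less. In thymidine nucleotide supply 6 of 6 measured genes were at 1 or more, with a median of 2.19, beside 2.51 for the 8 members past the filter. Rrm2, a subunit of ribonucleotide reductase, was at 19.8 and 109.2 CPM (log2 fold 2.41), thymidine kinase Tk1 at 12.4 and 60.5 CPM, and Dut, which removes dUTP, at 34.95 and 161.3 CPM (2.17).

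In serine synthesis and import 3 of 4 genes were at 1 or more. Phgdh, its first enzyme, stood at 2.51 and 22.2 CPM (log2 fold 2.72), Psat1 at 16.9 and 87.5 CPM (2.31) and Psph at 15.7 and 34.2 CPM (1.07), while Sfxn1, a mitochondrial serine carrier, was level at 262.6 and 266.5 CPM (0.02). In purine synthesis 3 of 11 genes were at 1 or more, a share near the 21.7% of all genes. Impdh2 was highest at 0.837 and 24.6 CPM (3.80), although 48.9% of its CD34-positive reads came from 1 cell, followed by Atic (2.19), Ppat (1.06) and Pfas (0.89), and Adss was lower at 141.8 and 76.2 CPM (-0.89).

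Some other folate genes were closer between the gates. Ggh, which removes the glutamates that Fpgs adds, stood at 80.3 and 60.2 CPM (log2 fold -0.41), and the mitochondrial folate carrier Slc25a32 at 12.2 and 25.1 CPM (0.98). Of the genes that interconvert folates, Mthfd2l was at 0.81, Mtfmt at -0.16 and Mthfs at -0.55. Aldh1l2 (19.8 and 3.20 CPM, -2.31) did not pass the filter, with 93.5% of its CD34-negative reads in 1 cell. In the methionine cycle 2 of 5 measured genes were past 1: Mtrr (1.42) and Ahcy (2.26), the latter under 10 CPM in both gates, as against Mat2a (0.81), Mat2b (-0.27) and Mtr (0.08). Dld, the measured glycine cleavage gene, was at 1.23. With 21.7% of all genes at 1 or more, context genes for Myc were past 1 in 5 of 5 measured, with Odc1 (2.67), Nme1 (2.54), Npm1 (1.24), Ncl (1.10) and Myc (1.08), and those for Atf4 in 1 of 4, near that share, Atf4 itself (1.24), with Sesn2 at -1.34, Ddit3 at -0.47 and Chac1 at 0.28.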

How the data were processed

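RNA of single index-sorted cells was profiled by a Smart-seq2-type protocol with ERCC spike-ins, per the labels' protocols. The authors deposited raw read counts per gene, made with GSNAP, HTSeq 0.5.3p3 and the build mm10, per the submitters' processing notes. The annotation release and strand setting are not given in the sources used here. Without molecular identifiers, intervals cover counting error only. Of all reads 32.4% were gene reads, 33.0% fell in no gene, 22.9% were not aligned, 7.68% were ambiguous and 3.97% were ERCC. Only gene reads entered library sizes.

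Cells needed 50000 gene reads, 1000 genes, under 20% mitochondrial and under 50% ERCC reads, which left out 2. Each well held 1 sorted cell and doublets were not called. No pair of columns was identical. Symbols covered 45143 identifiers. Sums have exact Poisson and shares exact binomial 95% intervals. The fold interval sets opposite bounds against each other. Detection was drawn without replacement to 200000 gene reads. The gene members, lists, naming rule and alternatives were chosen with earlier results of these data known. Named genes were the 9 members, up to 4 per other list with at least 10 CPM and the largest fold, and the 5 genes most like Fpgs or the 9. Mtfmt, Adss, Ahcy, Myc, the named cell type markers and the overlapping genes are named outside this rule, after their values were seen. Some listed genes are not reported here by name. Cells numbered 7 to 42 were also compared alone, an alternative taken over from earlier work on these counts, where other cell numbers had differed in their share of ambiguous reads. Exon lengths come from GENCODE M21 and promoters from RefSeq. Scripts were tested on simulated data. Scaling factors came from scran 1.30.0 and edgeR 4.0.16 (TMM) under R 4.3.3. All else ran in Python 3.11.15 with pandas 2.3.3, scipy 1.17.1, numpy 2.4.6 and, for plots, matplotlib 3.10.9.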

Additional observations from a re-analysis of the deposited data

Results flagged for a closer look

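CD34-positive cell 3 was left out of the comparisons for its 31504 gene reads and nevertheless held reads of several of the 9 genes, above the 3 reads that a count of 0 allows. Shmt2 had 13 reads, Shmt1 had 7, Mthfd1l had 6 and Mthfd1 had 4 in that cell. Fpgs and Slc19a1 had 0 reads there, and CD34-negative cell 20, also left out, had 1 read of Tyms and none of the other genes.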

How the results depend on the processing

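No paired analysis was possible because a title's number identifies a single sorted cell and ties it to none of the other gate, and no test was run. The Fpgs log2 fold of 4.92 was 5.51 with ERCC scaling, 7.60 with a pseudocount of 0.1 CPM and 2.03 with one of 10 CPM, and 4.72 to 4.97 when each cell was left out in turn. The median of the 9 folds, 3.08, was 3.98 with ERCC scaling, 2.74 without each gene's top cell by reads, 3.34 without CD34-negative cells 25 and 36, 2.52 in cells numbered 7 to 42, 1.49 with a pseudocount of 10 CPM and 2.74 to 3.18 when each cell was left out. The number of genes at a log2 fold of 1 or more ran from 7 to 9 over the alternatives run. ERCC scaling raised the share of all genes at that fold from 21.7% to 51.8%, and a pseudocount of 10 CPM lowered it to 11.2%. The difference of medians of genes found per cell, 3.5, ran from 2 (at least 10 reads) to 4. The rho of genes found with cell cycle genes, 0.44, was 0.26 with genes found per cell held constant, and 0.40 to 0.51 when each cell was left out. Gart changed sign from -0.02 to 0.17 with S phase genes alone and to 0.11 in cells numbered 7 to 42. Of 112 alternative folds of the other 8 genes, 57 stayed within the counting interval, 55 left it and 0 changed sign. The cause of these changes was not tested, except that a pseudocount acts most on low genes by construction. Leaving Tyms out of the 9, leaving out each cell for the rho, the Slc19a1 limit without CD34-positive cell 17, the shares of all genes at 10 reads and with genes found held constant, and the shares of all genes under other scalings were chosen after seeing the data. Drawing to 100000 gene reads lowered the difference in cells found most for Gart, from 56.5 to 39.1 percentage points.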
